A study of Mus musculus with 34 samples.

Results

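Resting cardiac fibroblast genes were followed in the left ventricle (LV) after myocardial infarction (MI). The genes were Gsn, Fbln1, Igsf10, Lrrc15, Pdgfra, Tcf21, Dpt, Dcn, Lum and Vtn, 10 of the 14552 genes listed in a first set of 10 libraries and of the 17406 listed in a second set of 24. They were chosen with the change from sham to 24 h in the first set in view, and with the direction at 24 h in the second set known. The values at 24 h against other times are therefore given as a description, with no test, and so are the orders they give. Gsn, Fbln1, Igsf10 and Vtn were also among the genes that the study picked from mRNA and protein of the uninjected hearts at 24 h. All hearts came from CFW mice, an outbred strain, and MI was made by tying off the left anterior descending (LAD) artery for good.

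The first set held uninjected hearts, with 3 sham mice, 3 mice at 4 h and 4 mice at 24 h post-MI, and 1 library per mouse from the ischemic area, or from the matching area of a sham heart. The study calls the controls sham operated, while their sample labels read 'No operation'. They are called sham here after the study. The second set held 2 libraries of sham-operated mice sampled at 4 h and libraries of infarcted hearts injected with modRNA, a synthetic messenger RNA with modified nucleotides. The paper's general methods place such injections in the border zone of the infarct right after ligation. The modRNA was Luc, which encodes luciferase and served as the control, or AC, a code the labels do not spell out. Luc libraries numbered 4 at 4 h, 3 at 24 h and 4 at 48 h, and AC libraries likewise numbered 4, 3 and 4. The paper does not describe this set, and its labels name the LV without the area sampled. Nothing in the labels of the second set ties a library to a mouse. Counts of hearts in this set are therefore counts of libraries, and its p-values measure the spread between libraries. The sham and 4 h titles share a numbering, the 48 h titles have their own and the 24 h titles carry a further tag, so a change between times in the second set cannot be told apart from a difference between these sets of titles. AC and Luc hearts of a time share a numbering.

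Fibroblasts of the healthy heart make and turn over the collagen matrix between muscle fibres. They are marked by the receptor Pdgfra and the transcription factor Tcf21, and secrete matrix proteins such as decorin, lumican, dermatopontin and fibulin-1. After an infarct they are known to divide, migrate and take on an activated, matrix-depositing state. Gelsolin, the product of Gsn, severs and caps actin filaments and is also secreted, and it is abundant in fibroblasts. Lrrc15 encodes a leucine-rich repeat membrane protein best known from activated fibroblasts of tumours and scars.

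Values are CPM, reads of a gene relative to the library size after TMM scaling by the authors, and each set was normalized on its own. Levels are therefore compared only within a set. In the first set the libraries held an estimated 12553519 to 18952669 reads, and 1 read was worth 0.0313 to 0.0479 CPM, while the depth of the second set is unknown. Cardiomyocyte markers were high in every library, with a summed level over 11 markers between 29372 and 107699 CPM. Library G at 24 h stood apart in the first set, with 539 CPM over 10 neutrophil and monocyte markers against 1077 to 2335 in the other 3, and with the highest value of its group for 10 of the 10 fibroblast genes. Library C of the AC hearts at 24 h had 464 CPM over these markers, against 126 and 139 in the other 2. In the second set the listed values summed to 678772 to 818456 CPM at 24 h, to 619752 and 628938 in sham hearts and to 508204 to 641170 at 48 h.

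The promoter windows of the genes with an entry in RefSeq were searched for CAGCTG, an E-box of the kind that basic helix-loop-helix factors such as Tcf21 bind, and for TGANTCA, the AP-1 motif. Both motifs read the same on both strands, and they do not overlap each other in these windows. A window runs from 250 bases before a gene's start to 50 after it. For 8 of the 10 genes 11 windows were found, and there was none for Dcn and Lum. CAGCTG was in 5 of the 11 windows and in 16.3% of all 32851 promoter windows, and TGANTCA in 1 of the 11 and in 7.81% of all. The windows with CAGCTG belong to 3 of the 8 genes, and a Fbln1 site was counted in 2 overlapping windows. Each match is shown with the motif in capitals and with GRCm38.p6 coordinates and strand. A match is a description of the letters and no evidence of binding.
Gsn, chr2:35256294-35256323, plus strand: tctacatcctccCAGCTGcgctcctcccca
Gsn, chr2:35266516-35266545, plus strand: ggccagaggactCAGCTGtacaacccacca
Fbln1, chr15:85205948-85205977, plus strand: ggcggcgtgctcCAGCTGcgcagtgctgaa
Dpt, chr1:164796451-164796480, plus strand: agcagagtggagCAGCTGcctctggtccct
Dpt, chr1:164796657-164796686, plus strand: acatgtcagcggCAGCTGtataaagtcagc
Lrrc15, chr16:30283290-30283318, minus strand: gccccgtgcggTGACTCAcgaggggctgt

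In uninjected hearts 9 of the 10 genes were lower at 24 h post-MI than in sham hearts in every library, and Pdgfra was not. The lower ones were Gsn, Fbln1, Igsf10, Lrrc15, Tcf21, Dpt, Dcn, Lum and Vtn. Groups that did not overlap in this direction were found for 28.7% of all 12487 genes tested, and since this contrast chose the genes nothing is read from their count. In whole tissue, fewer fibroblasts, less RNA per fibroblast and more RNA from other cells cannot be told apart.

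Gsn (chr2:35256359-35307903, plus strand, mm10) had 858, 1019 and 1255 CPM in the sham hearts. It had 1270.4, 1429.8 and 1460.4 CPM at 4 h and 325, 472, 529 and 684 CPM at 24 h post-MI. The 3 values at 4 h were the highest and the 4 values at 24 h the lowest, and no groups overlapped. The mean was 1044 ± 200.01 CPM (SD, n = 3) in sham hearts and 503 ± 148 CPM (SD, n = 4) at 24 h, 2.08-fold lower. The ratio of 24 h to sham was 0.481 ± 0.169 with all libraries and 0.424 without library G, which was left out only after the values were seen.

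Lrrc15 (chr16:30269302-30283255, minus strand) was lower by the largest factor of the 10. It had 26.9, 44.3 and 59.4 CPM in sham hearts and 26.5, 26.9 and 31.6 CPM at 4 h. At 24 h it had 0.723, 1.09, 1.20 and 2.50 CPM, which rest on 19 to 62 estimated reads per library. The sham libraries were spread widely and met the 4 h libraries at their lower end, while the 24 h libraries lay far under both. The sham mean was 43.5 ± 16.2 CPM (SD, n = 3) and the 24 h mean 1.38 ± 0.773 CPM (SD, n = 4), 31.6-fold lower, with a ratio of 0.0317 ± 0.0213, or 0.0231 without library G. Lrrc15 amounted to 2.14% to 6.92% of the Gsn value of the same sham library and to 0.222% to 0.365% at 24 h, a share that no scaling of a library can move.

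Pdgfra, the receptor tyrosine kinase that marks the lineage (chr5:75152251-75198207, plus strand), had 36.5, 39.4 and 41.3 CPM in sham hearts. It had 48.9, 53.5 and 59.1 CPM at 4 h and 29.2, 38.5, 38.5 and 60.0 CPM at 24 h. The 24 h libraries lay on both sides of the sham libraries, the highest being library G, and their mean was 1.06 ± 0.341 times that of sham hearts (0.906 without library G). Tcf21, the factor needed for epicardial cells to become fibroblasts (chr10:22817275-22820129, minus strand), had 5.16, 6.17 and 6.73 CPM in sham hearts and 3.01, 3.26, 3.32 and 4.39 CPM at 24 h. The groups did not overlap, and the mean at 24 h was 1.72-fold lower. The receptor and the transcription factor thus differed, with overlap for the first and none for the second.

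Among the small leucine-rich proteoglycans, which bind collagen fibrils, Dcn (chr10:97479500-97518164, plus strand) had 384, 419.9 and 426 CPM in sham hearts and 210.3, 270.5, 273 and 353 CPM at 24 h. Lum (chr10:97565501-97572704, plus strand), which starts 47.3 kb after the end of Dcn, had 94.6, 117 and 118 CPM in sham hearts and 34.9, 39.9, 57.0 and 70.0 CPM at 24 h. Both were lower at 24 h without overlap, Dcn 1.48-fold and Lum 2.18-fold. Lum was 22.5% to 30.6% of the Dcn value of the same library in sham hearts and 12.9% to 20.9% at 24 h.

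The other secreted proteins were lower by 2.12-fold to 3.47-fold. Dpt, a collagen-associated matrix protein (chr1:164796732-164824267, plus strand), was 62.9 ± 9.30 CPM (SD, n = 3) in sham hearts and 29.7 ± 6.27 CPM (SD, n = 4) at 24 h. Fbln1, fibulin-1 of the extracellular matrix (chr15:85205949-85286295, plus strand), was 41.2 ± 3.45 CPM in sham hearts and 16.4 ± 6.12 CPM at 24 h. Vtn, the adhesive glycoprotein vitronectin (chr11:78499120-78502326, plus strand), was 19.5 ± 2.42 CPM and 6.74 ± 3.68 CPM. In these 3 genes each of the 4 libraries at 24 h lay under each sham library, and the ratios to sham were 0.472 ± 0.122, 0.398 ± 0.152 and 0.345 ± 0.193.

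Igsf10, a secreted member of the immunoglobulin superfamily (chr3:59316735-59344257, minus strand), had 4.49, 4.59 and 5.21 CPM in sham hearts and 0.791, 0.850, 1.54 and 2.30 CPM at 24 h. The ratio of 24 h to sham was 0.288 ± 0.151, or 0.223 without library G. Igsf10 overlaps Med12l on the other strand, which was also lower at 24 h, with 3.95 ± 0.309 CPM against 9.52 ± 0.185 CPM in sham hearts. Whether counting used the strand is not stated, so reads of Igsf10 and Med12l may have been exchanged. Antisense genes annotated at Pdgfra, Tcf21 and Dpt are not listed in the files, and reads from them could have been counted with those genes.

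**Figure D1:**
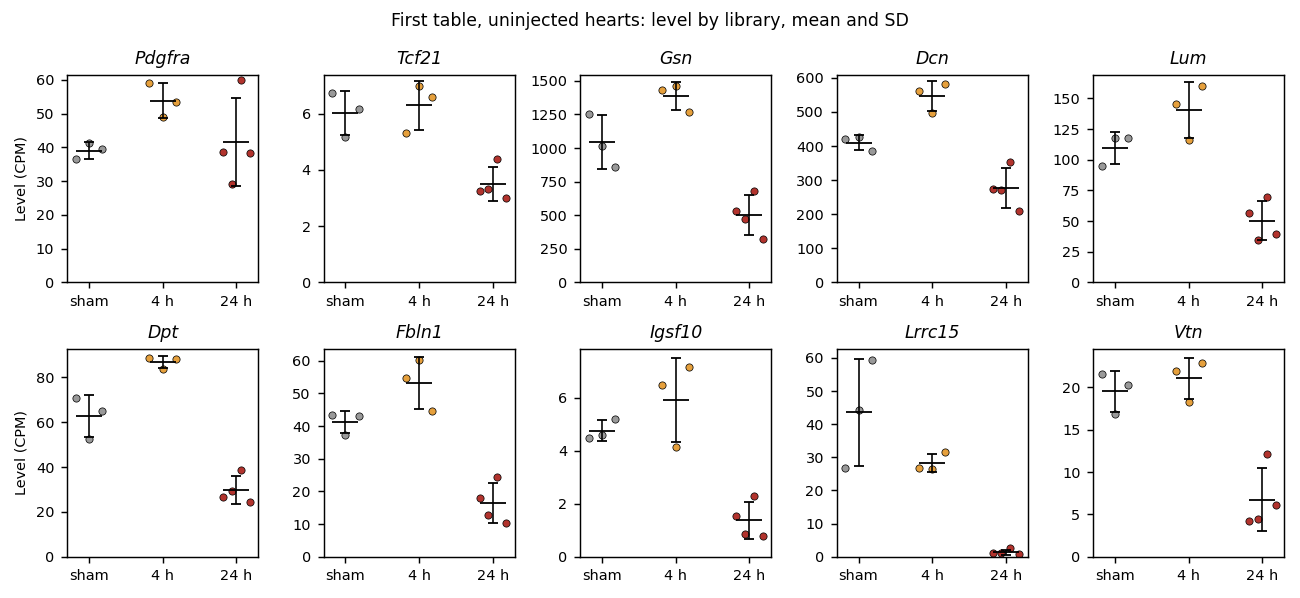
Levels of the 10 fibroblast genes in uninjected hearts, in CPM, for sham (n = 3), 4 h (n = 3) and 24 h post-MI (n = 4). Points are libraries and bars the mean and SD. The 24 h libraries lie under every sham library for 9 genes, from 325 to 684 CPM for Gsn and from 0.723 to 2.50 CPM for Lrrc15, and overlap them for Pdgfra.

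Markers of other cells moved at the same time, and their counts are to be read against 35.6% of all genes higher and 30.3% lower. At 24 h 10 of 10 neutrophil and monocyte markers rose, and their sum went from 56.4 to 117 CPM in sham hearts to 539 to 2335 CPM. Of the 11 cardiomyocyte markers 7 fell and none rose (limma, adjusted p under 0.05), and their sum went from 68626 to 74469.9 CPM to 29372 to 47539 CPM. Every marker listed was above 0 in each library of this set. The part of these shifts in the lower values of the fibroblast genes was not tested. The endothelial markers, with 3 of 8 higher and 3 lower, and the macrophage markers, with 2 of 8 higher and none lower, were near or under those shares. Of the pericyte and smooth muscle markers 4 of 7 were lower and 2 higher. The epicardial and mesothelial sum went from 4.94 to 5.71 CPM in sham hearts to 56.8 to 74.9 CPM at 24 h, with both markers tested higher. It was carried mostly by Aldh1a2, at up to 65.2 CPM, while Wt1 reached at most 6.38 CPM. The Schwann cell sum went from 7.21 to 8.28 CPM to 2.25 to 4.35 CPM, with both tested lower.

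At 4 h post-MI none of the 10 genes had passed the test against sham, although most had a higher mean. With limma on log2(CPM + 1), 0 of 10 had an adjusted p under 0.05, 3 had an unadjusted p under 0.05, and 2.37% of all genes tested were called. The sham libraries of this contrast also entered the one that chose the genes. The 4 h libraries of Gsn, Fbln1, Pdgfra, Dpt and Dcn were all above the sham libraries, 5 of 10 genes, where groups without overlap in this direction were found for 10.9% of all genes. Dpt had 83.7, 88.1 and 88.5 CPM at 4 h and 52.7, 65.2 and 70.9 CPM in sham hearts, a log2 fold change of 0.47 (SE 0.16, limma adjusted p = 0.18). Dcn had 497, 561 and 581 CPM at 4 h, with a log2 fold change of 0.41 (SE 0.16, limma adjusted p = 0.24). For Pdgfra and Gsn it was 0.45 and 0.42 (SE 0.20 and 0.24), with limma adjusted p of 0.29 and 0.41. Lrrc15 had a lower mean, with a log2 fold change of -0.54 (SE 0.29, limma adjusted p = 0.38), while Tcf21 differed by 0.05 and Vtn by 0.10. The median over the 10 genes was 0.35, against -0.03 over all genes. Without library G, which enters this fit through the shared spread, Dpt passed the test (limma adjusted p = 0.045).

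In the injected set the 24 h values of several of these genes lay on the other side of sham. In Luc hearts at 24 h Gsn, Fbln1, Tcf21 and Dcn, all lower in uninjected hearts, were higher than in both sham hearts in each of 3 libraries. Lrrc15 and Vtn were lower in both sets. In AC hearts Gsn, Fbln1 and Dcn were higher and Lrrc15 lower. Groups above sham without overlap were found for 37.4% of all genes in Luc hearts and 31.5% in AC hearts. Groups below sham were found for 18.5% and 12.4%. The direction was known when the genes were chosen and no test was made. The sets also differ in injection, area named, normalization and controls, and these cannot be told apart. Controls of the first set are labelled No operation without a time, and those of the second are sham operated and sampled at 4 h.

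Gsn had 653 and 805 CPM in the 2 sham hearts of this set, 1476, 1614 and 2239 CPM in Luc hearts at 24 h, and 1334, 1572 and 1665 CPM in AC hearts at 24 h. All 6 injected libraries at 24 h were above both sham libraries. The ratio to sham was 2.44 ± 0.662 in Luc and 2.09 ± 0.386 in AC hearts, against 0.481 in the uninjected set. Dcn had 371 and 377 CPM in sham hearts, 611, 622 and 692 CPM in Luc hearts and 488, 734 and 749 CPM in AC hearts at 24 h. The 488 CPM came from library C of the AC hearts, which had more neutrophil and monocyte marker RNA than the other 2. The ratios to sham were 1.72 ± 0.120 and 1.76 ± 0.392.

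Fbln1 had 43.6 and 44.7 CPM in sham hearts, 52.9, 76.8 and 125 CPM in Luc hearts and 48.0, 64.5 and 74.0 CPM in AC hearts at 24 h. Its ratios to sham were 1.93 ± 0.836 and 1.41 ± 0.300, and the lowest injected libraries lay close above sham. Tcf21 had 4.03 and 4.04 CPM in sham hearts, 8.40, 8.97 and 9.60 CPM in Luc hearts and 3.97, 8.91 and 9.77 CPM in AC hearts. The ratio was 2.23 ± 0.149 in Luc hearts. In AC hearts it was 1.87 ± 0.776, with library C at the sham level and the other 2 libraries near the Luc values.

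Lrrc15 had 33.5 and 37.3 CPM in sham hearts, 12.2, 15.1 and 15.4 CPM in Luc hearts and 12.5, 15.4 and 33.4 CPM in AC hearts at 24 h. It was lower in both sets, but 2.49-fold in Luc hearts where it was 31.6-fold in uninjected hearts. Library C of the AC hearts, the lowest of its group for Gsn and Dcn, was the highest for Lrrc15, at 33.4 CPM. Lrrc15 was 4.63% to 5.13% of Gsn in the sham libraries and 0.546% to 1.02% in the Luc libraries at 24 h, so within a library the proportion of the 2 genes moved the same way in both sets. Lum was 24.2% to 28.4% of Dcn in sham hearts, and 6.64% to 17.4% in Luc and 8.55% to 12.7% in AC hearts at 24 h, again lower as in the uninjected set. These 2 proportions were chosen after the values were seen.

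Pdgfra had 27.0 and 38.8 CPM in sham hearts, 53.5, 54.3 and 62.4 CPM in Luc hearts and 56.2, 63.4 and 78.4 CPM in AC hearts at 24 h, higher without overlap in both. Vtn had 18.1 and 20.4 CPM in sham hearts, 13.5, 17.5 and 17.8 CPM in Luc hearts and 12.6, 22.3 and 29.4 CPM in AC hearts. Igsf10, Dpt and Lum overlapped sham in both injected groups, with ratios in Luc hearts of 1.02 ± 0.387, 0.988 and 0.871. Luc library A held the lowest value of its group for these 3, with 2.64 CPM of Igsf10, 67.2 CPM of Dpt and 41.3 CPM of Lum. Counted over the 10 genes, 5 were higher and 2 lower than sham without overlap in Luc hearts, where 37.4% and 18.5% of all genes were, and 4 were higher and 1 lower in AC hearts, where 31.5% and 12.4% were. The higher means of Gsn, Fbln1, Tcf21 and Dcn in Luc hearts kept their direction with the libraries rescaled to equal totals, at 1.95, 1.54, 1.79 and 1.38 times sham. The single libraries of Fbln1 overlapped sham on that scale. Its Luc library A, with 52.9 CPM and listed values summing to 777699 CPM, then lay under both sham libraries. Fbln1 in AC library C then lay between the sham libraries. That rescaling, chosen after the data were seen, shifted the all-gene median by -0.27 (log2), and Igsf10 then lay at 0.824 times sham.

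**Figure D2:**
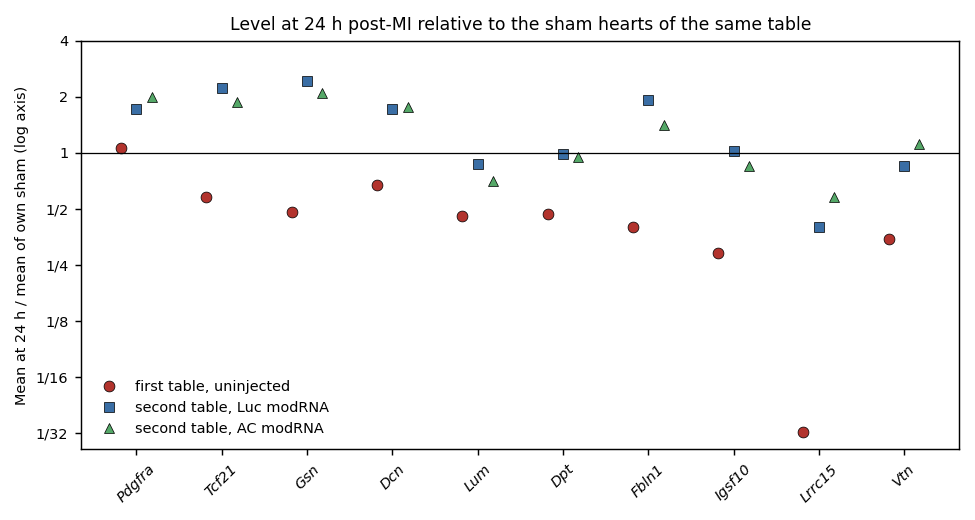
Ratio of the mean CPM at 24 h to the mean of the sham libraries of the same set, on a log axis, for uninjected hearts (n = 4 and 3), Luc hearts and AC hearts (n = 3 and 2 each). The line marks a ratio of 1. Gsn lies at 0.481 in uninjected hearts and at 2.44 and 2.09 in Luc and AC hearts, and Lrrc15 lies under 1 in all 3.

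Changes of marker sums from sham differed between the sets as well. The neutrophil and monocyte sum was 74.1 to 157 CPM in the sham hearts of the second set and 105 to 168 CPM in Luc hearts at 24 h, which overlapped. In the uninjected set it was 56.4 to 117 CPM in sham hearts and 539 to 2335 CPM at 24 h, without overlap. Of the 10 markers 7 rose in Luc hearts (limma), where 25.3% of all genes did. Lyz2 alone averaged 97.4 CPM in the sham hearts of the second set and so carried most of that sum. The cardiomyocyte sum was 75431 to 76486 CPM in sham and 87556 to 107699 CPM in Luc hearts. Of its 11 markers 2 were higher and 1 lower, where 25.3% and 8.79% of all genes were. All listed values also summed to more in these Luc libraries, 730630 to 818456 CPM against 619752 and 628938 in sham. Relative to those totals, the cardiomyocyte sum overlapped sham. In the uninjected set the cardiomyocyte sum was 68626 to 74469.9 CPM in sham hearts and 29372 to 47539 CPM at 24 h. In the second set no cardiomyocyte marker was at 0 in any library and Mmp8, among the neutrophil and monocyte markers, was at 0 in 1, while the epicardial markers Upk3b and Upk1b were at 0 in 11 each. The part of these markers in the opposite directions was not tested.

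At 4 h the Luc hearts gave 0 of 10 genes past the test against sham (limma), 2 at an unadjusted p under 0.05, where 1.55% of all genes were called. Gsn had 1040.2, 1146, 1160.1 and 1343 CPM against 653 and 805 in sham hearts, without overlap, and a log2 fold change of 0.69 (SE 0.22, limma adjusted p = 0.15). Tcf21 had 5.47 to 7.58 CPM and a log2 fold change of 0.52 (SE 0.24, limma adjusted p = 0.34). The median over the 10 genes was 0.27, against 0.02 over all genes.

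At 48 h after MI most of the genes had fallen in Luc hearts from their level at 4 h. Of the 10, 8 fell and none rose (limma, adjusted p under 0.05), where 21.5% of all genes fell and 15% rose. The neutrophil and monocyte sum went from 191 to 304 CPM at 4 h to 265 to 615 CPM at 48 h and the cardiomyocyte sum from 76463 to 89834 CPM to 47464 to 64789.8 CPM, and their part was not tested. Gsn had 413, 569, 706 and 850.3 CPM at 48 h, all under the 4 h values, a log2 fold change of -0.93 (SE 0.18, limma adjusted p = 0.00051). Lrrc15 had 5.34, 8.59, 18.5 and 18.6 CPM at 48 h against 28.8 to 32.9 CPM at 4 h, a log2 fold change of -1.37 (SE 0.29, limma adjusted p = 0.00092). Its 48 h libraries fell into a lower and a higher pair, both under every 4 h library. Vtn fell by 1.20 on the log2 scale (SE 0.20, limma adjusted p = 7.5e-05), Dpt by 1.02 and Fbln1 by 0.71, with 9.05 to 11.5, 49.2 to 68.9 and 30.3 to 47.2 CPM at 48 h.

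Lum, Igsf10 and Tcf21 fell in Luc hearts as well, by 0.85, 0.85 and 0.60 on the log2 scale, but less firmly. Their limma adjusted p of 0.018, 0.020 and 0.021 passed the threshold in the fit of all libraries. Without Luc library 3 at 48 h they were 0.079 for Lum and 0.092 for Igsf10, without Luc library 1 at 48 h 0.057 for Igsf10, and for Tcf21 0.074 without Luc library 2 at 48 h and 0.072 without Luc library 1 at 4 h. The marker genes Dcn and Pdgfra did not pass. Dcn had 393, 396, 484 and 568 CPM at 48 h and 445 to 475 CPM at 4 h, a log2 fold change of -0.02 (limma adjusted p = 0.93). Pdgfra had 43.5 to 60.3 CPM at 48 h and 33.2 to 43.5 CPM at 4 h, a log2 fold change of 0.43 (limma adjusted p = 0.083), and it passed without AC library 2 at 4 h (limma adjusted p = 0.043). With the libraries scaled to equal totals, under which the all-gene median shifted by 0.23 (log2), Fbln1, Lum, Igsf10 and Tcf21 no longer passed and Pdgfra did.

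Against the 2 sham hearts, 4 of the 10 genes passed at 48 h in Luc hearts, where 16.4% of all genes fell and 13.7% rose. Lrrc15 fell by 1.56 on the log2 scale (SE 0.36, limma adjusted p = 0.0023), Vtn by 0.90 (SE 0.24, limma adjusted p = 0.0068) and Dpt by 0.79 (SE 0.22, limma adjusted p = 0.0100). Pdgfra rose by 0.66 (SE 0.24, limma adjusted p = 0.0378). Without sham library 1 only Lrrc15 of the 4 passed, and the limma adjusted p was 0.38 for Pdgfra, 0.16 for Dpt and 0.077 for Vtn. Pdgfra also missed the threshold without Luc library 1, 3 or 4 at 48 h (limma adjusted p = 0.086, 0.052 and 0.062). Gsn, which had fallen from 4 h, lay at 413 to 850.3 CPM around the sham values of 653 and 805. Without Luc library 4 at 48 h, Lum and Igsf10 passed too (limma adjusted p = 0.013 and 0.042), and Lum did so without Luc library A at 24 h (0.033). With equal totals the share of higher genes among all called went from 45.4% to 65.9%, and Dcn passed as higher (log2 fold change 0.45, limma adjusted p = 0.013).

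**Figure D3:**
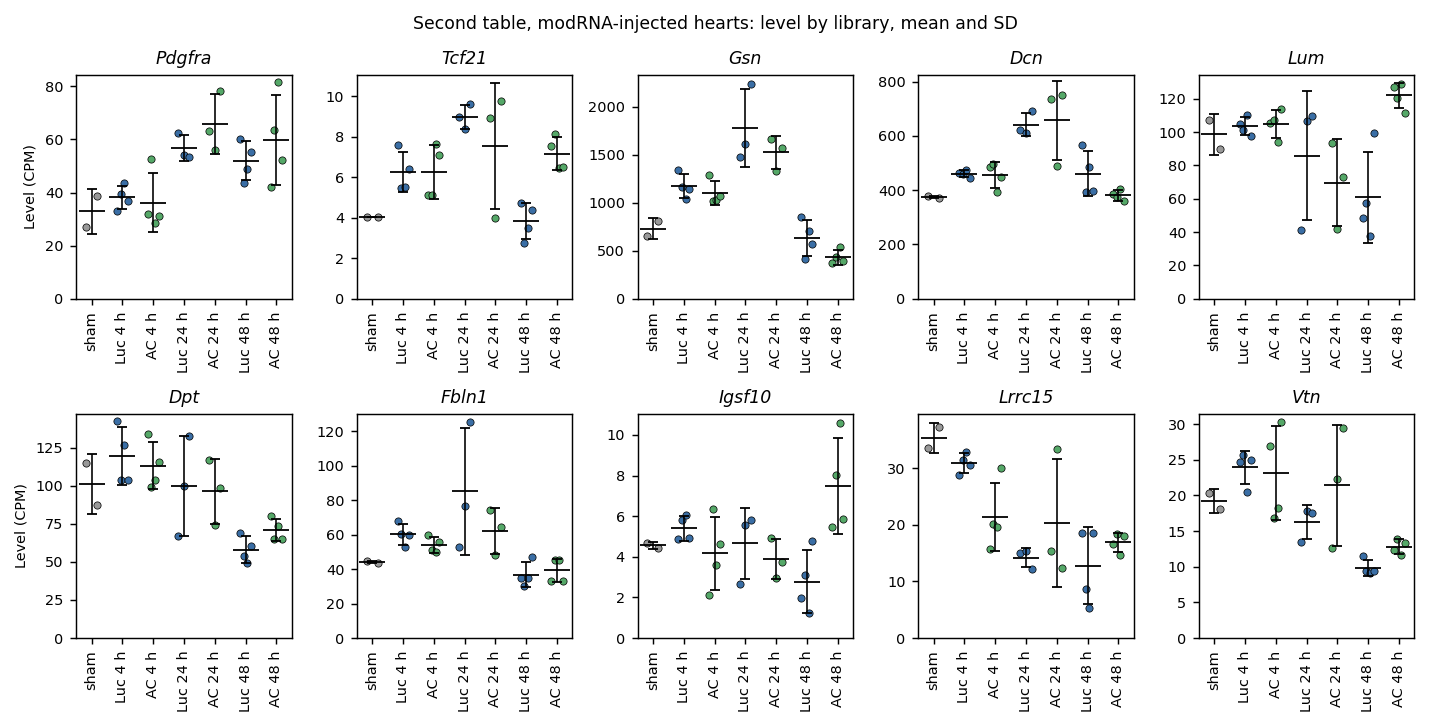
Levels of the 10 genes in the second set of libraries, in CPM, for sham hearts (n = 2) and for Luc and AC hearts at 4 h (n = 4 each), 24 h (n = 3 each) and 48 h (n = 4 each). Points are libraries and bars the mean and SD. Within each treatment the mean of Gsn is highest at 24 h, with libraries at 1334 to 2239 CPM, and at 48 h the AC libraries of Igsf10, Lum and Tcf21 lie above all Luc libraries.

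In AC hearts 3 of the 10 genes fell and 2 rose from 4 h to 48 h, where 21% of all genes fell and 26.6% rose. Gsn fell by 1.35 on the log2 scale (SE 0.18, limma adjusted p = 3.0e-06), from 1017, 1025, 1068 and 1291 CPM to 367, 391, 432 and 541 CPM. Vtn fell by 0.77 and Dpt by 0.66 (limma adjusted p = 0.0027 and 0.0045). Pdgfra rose by 0.72 (SE 0.19, limma adjusted p = 0.0040), from 28.6, 31.3, 31.8 and 52.7 CPM to 42.2, 52.1, 63.6 and 81.6 CPM, so that the groups still overlapped. Igsf10 rose by 0.74 (SE 0.28, limma adjusted p = 0.030), from 2.09, 3.58, 4.62 and 6.36 CPM to 5.46, 5.84, 8.04 and 10.6 CPM. The call for Igsf10 was lost without AC library 2 or 4 at 48 h (limma adjusted p = 0.071 and 0.11) and without AC library 1 or 3 at 4 h (0.13 and 0.067). Lrrc15, Dcn, Lum and Tcf21 differed by -0.29, -0.26, 0.22 and 0.19 and did not pass, and Fbln1 had -0.47 (limma adjusted p = 0.054). These counts depended on the scaling. With equal totals, which shifted the all-gene median by 0.35 (log2) and the share of higher genes among those called from 55.9% to 83.5%, Vtn and Dpt missed the threshold (limma adjusted p = 0.072 and 0.13) and Tcf21 passed as higher (0.016), 1 gene lower and 3 higher. With median-ratio rescaling Igsf10 missed it (limma adjusted p = 0.052) and Fbln1 and Dcn passed as lower (0.019 and 0.044). All 11 cardiomyocyte markers fell over the same interval, and their sum went from 74990.4 to 100333 CPM to 34574 to 43668 CPM. The neutrophil and monocyte sum went from 173 to 226 CPM to 443 to 565 CPM and the macrophage sum from 152 to 199 CPM to 245 to 294 CPM. The epicardial sum, carried mostly by Aldh1a2, went from 6.63 to 12.01 CPM to 64.6 to 82.0 CPM. Over all libraries of this set Aldh1a2 reached 76.7 CPM and Wt1 17.7 CPM. The part of these shifts was not tested. Between AC and Luc hearts, the change from 4 h to 48 h was compared by a test of its own, given after the AC effects.

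The effect of the AC modRNA against the Luc control was tested at each time. At 4 h and at 24 h 0 of 10 genes passed (limma), none had an unadjusted p under 0.05, and 0.00796% of all genes were called at each time. Luc libraries at 24 h also entered what chose the genes. The log2 differences between AC and Luc hearts ran from -0.54 to 0.02 at 4 h and from -0.38 to 0.38 at 24 h.

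At 48 h, Igsf10, Lum and Tcf21 were higher in AC than in Luc hearts, 3 of 10 genes where 12.1% of all genes were higher, and none was lower where 3.27% were. Igsf10 had 5.46, 5.84, 8.04 and 10.6 CPM in AC hearts and 1.23, 1.96, 3.11 and 4.79 CPM in Luc hearts. All AC libraries were above all Luc libraries, and the log2 difference was 1.22 (SE 0.28, 95% confidence interval 0.65 to 1.79, limma adjusted p = 0.0054). Med12l on the other strand had 4.29 ± 0.581 CPM in AC hearts and 4.45 ± 1.43 CPM in Luc hearts (SD, n = 4 each), a far smaller difference of means.

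Lum had 112, 120.3, 127 and 129 CPM in AC hearts and 37.8, 48.4, 57.3 and 99.5 CPM in Luc hearts. The groups did not overlap, with Luc library 4 nearest, and the log2 difference was 1.08 (SE 0.27, 95% confidence interval 0.52 to 1.65, limma adjusted p = 0.010). Without Luc library 3 at 48 h the limma adjusted p was 0.059. Dcn, its neighbour on chromosome 10, had 359, 374, 385 and 404 CPM in AC hearts and 393, 396, 484 and 568 CPM in Luc hearts, a log2 difference of -0.26 (limma adjusted p = 0.20). Lum was 31.2% to 33.0% of Dcn in every AC library and 7.81% to 25.1% in the Luc libraries, a proportion chosen after the values were seen.

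Tcf21 had 6.48, 6.52, 7.55 and 8.14 CPM in AC hearts and 2.75, 3.48, 4.37 and 4.71 CPM in Luc hearts, a log2 difference of 0.77 (SE 0.20, 95% confidence interval 0.37 to 1.18, limma adjusted p = 0.011). Gsn lay the other way, with 367, 391, 432 and 541 CPM in AC hearts and 413, 569, 706 and 850.3 CPM in Luc hearts, overlapping in part. Its log2 difference of -0.52 (SE 0.18, 95% confidence interval -0.90 to -0.14) had a limma adjusted p of 0.058, which was 0.0095 without Luc library 2 at 48 h, 0.045 without AC library 4 at 48 h and 0.0496 without Luc library 4 at 48 h or without Luc library D at 24 h. Lrrc15 had 14.6, 16.6, 18.1 and 18.4 CPM in AC hearts, within the 5.34 to 18.6 CPM of Luc hearts (log2 difference 0.53, 95% confidence interval -0.07 to 1.13, limma adjusted p = 0.22). Vtn did not pass (0.35, limma adjusted p = 0.23), although its AC libraries at 11.6 to 13.9 CPM were all above its Luc libraries at 9.05 to 11.5 CPM, which makes 4 of 10 genes higher without overlap where 15.5% of all genes were. Dpt, Pdgfra and Fbln1 had differences of 0.29, 0.17 and 0.09.

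The balance of directions at 48 h depended on the scaling. Of all genes called, 78.7% were higher in AC hearts, and 50.7% were after median-ratio rescaling, which shifted the all-gene median by -0.13 (log2). With that rescaling Igsf10, Lum and Tcf21 still passed as higher, and Gsn (-0.67, limma adjusted p = 0.012) and Dcn (-0.41, limma adjusted p = 0.048) passed as lower. With equal totals Gsn passed as lower too (limma adjusted p = 0.032). The cardiomyocyte sum was 34574 to 43668 CPM in AC and 47464 to 64789.8 CPM in Luc hearts at 48 h, without overlap. Of its 11 markers 4 were lower, where 3.27% of all genes were. The neutrophil and monocyte sum was 443 to 565 CPM in AC hearts, within the 265 to 615 CPM of Luc hearts. Of its 10 markers 2 were higher and 1 lower, where 12.1% and 3.27% of all genes were. The epicardial sum, carried mostly by Aldh1a2, was 64.6 to 82.0 CPM in AC and 25.1 to 40.8 CPM in Luc hearts, with 1 of the 2 markers tested higher. The part of these shifts was not tested.

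**Figure D4:**
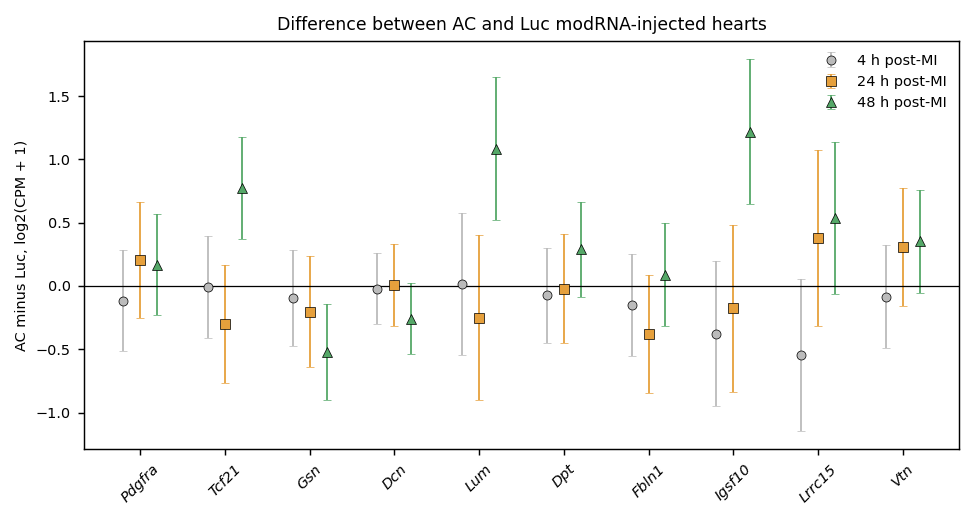
Difference between AC and Luc hearts in log2(CPM + 1) for the 10 genes at 4 h, 24 h and 48 h, from limma, with unadjusted 95% confidence intervals as bars. At 48 h the intervals of Igsf10 (0.65 to 1.79), Lum (0.52 to 1.65) and Tcf21 (0.37 to 1.18) lie above 0 and that of Gsn (-0.90 to -0.14) under it.

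Whether the AC effect at 48 h differed from that at 4 h was tested as the difference of the differences. Igsf10 alone of the 10 genes passed, at 1.59 (SE 0.39, 95% confidence interval 0.78 to 2.40, limma adjusted p = 0.025), where 2.88% of all genes passed in this direction. The 4 h part rests on AC libraries at 2.09 to 6.36 CPM and Luc libraries at 4.86 to 6.05 CPM. The call was lost in 7 of the fits that left out 1 library, with a limma adjusted p of 0.0501 without AC library 1 and 0.056 without AC library 3 at 4 h, 0.054 without Luc library 3 at 4 h, 0.058 and 0.067 without AC library 2 or 4 at 48 h, and 0.059 and 0.068 without Luc library 1 or 3 at 48 h. Tcf21, Lum and Lrrc15 had 0.78, 1.07 and 1.08 (limma adjusted p = 0.12, 0.13 and 0.15). Lum and Lrrc15 passed without Luc library 4 at 48 h (limma adjusted p = 0.022 and 0.047), and Tcf21 without AC library C at 24 h (0.036).

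Genes with a pattern like that of Gsn and Lrrc15 were named by Pearson's r of log2(CPM + 1) over all libraries of a set, among genes averaging 10 CPM or more. Libraries of a group share a time and a treatment, and r is given as a description. In the first set (n = 10) Foxo1, a transcription factor of the insulin pathway (r = 0.986), Adgrf5, an adhesion receptor (0.981), and Clec3b (0.972) were most like Gsn. Adgrf5 had 188 ± 14.1, 221 ± 25.3 and 106 ± 21.4 CPM in sham, 4 h and 24 h hearts. In the second set (n = 24) Nbl1, Aldh2 and Ldhd were most like Gsn (0.959, 0.952 and 0.952). Aldh2, mitochondrial aldehyde dehydrogenase, had a mean of 133 CPM in sham hearts, 217 CPM in Luc hearts at 24 h and 90.2 CPM in AC hearts at 48 h. For Lrrc15 they were Enpp5, Plxnb1 and Crhr2 in the first set (0.997, 0.996 and 0.994) and Slc16a10, Gpatch11 and Amigo1 in the second (0.848, 0.841 and 0.828). Plxnb1, a semaphorin receptor, had 57.8 ± 11.2 CPM in sham hearts and 5.76 ± 0.822 CPM at 24 h.

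Since the genes were chosen for their 24 h change in the first set and with that of the second known, r among them restates that choice in part and is no finding. In the first, r with Gsn was 0.976 for Fbln1 and 0.519 for Pdgfra, the lowest of the 9. In the second it was 0.846 for Fbln1 and 0.799 for Dcn, but 0.0096 for Pdgfra, -0.139 for Lum and -0.172 for Igsf10. With Lrrc15, r was between 0.835 and 0.933 in the first set for all but Pdgfra (0.308), and in the second it was 0.600 for Vtn, 0.491 for Dpt, -0.302 for Dcn and -0.439 for Pdgfra.

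Other genes of resident fibroblasts were also counted. Like the other gene lists used here, this one was chosen with earlier results of these data known. Its counts and limma adjusted p, those at 24 h included, are therefore a description. They are no independent support for the directions of the genes followed above. Of 20 on a list of such genes, 12 fell and 3 rose at 24 h in uninjected hearts (limma), with a median log2 fold change of -0.93, where 30.3% of all genes fell and 35.6% rose. Scara5, a ferritin receptor, went from 20.9 to 3.31 CPM, Htra3, a secreted serine protease, from 69.9 to 12.2 CPM and Abca8a, a lipid transporter, from 71.9 to 13.6 CPM. In Luc hearts at 24 h 2 of the 20 fell and 7 rose, with a median of 0.48, where 8.79% of all genes fell and 25.3% rose, and in AC hearts 1 fell and 6 rose, where 4.32% and 16.6% did. With equal totals 3 fell and 5 rose in Luc hearts, with a median of 0.18, and of all genes called 42.6% were higher in place of 74.2%, while the counts in uninjected hearts stayed at 12 and 3. Cxcl14, a chemokine, rose from 13.96 to 59.9 CPM in Luc hearts (log2 fold change 1.91, limma adjusted p = 0.0012) and had a log2 fold change of 0.11 in uninjected hearts. Abca8a fell in both sets (log2 fold change -1.47 in Luc hearts, limma adjusted p = 0.0085). None of the 20 passed at 4 h in uninjected hearts or between AC and Luc hearts at 4 or 24 h. At 48 h 5 were higher and 3 lower in AC hearts, among them Col15a1, a basement membrane collagen (48.2 CPM in Luc and 164 CPM in AC hearts), and Scara5 (19.3 and 6.65 CPM).

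Genes of activated fibroblasts and scar matrix were counted likewise, and the same limit holds for their list. At 24 h 11 of 19 tested rose and 1 fell in uninjected hearts, where 35.6% of all genes rose and 30.3% fell, and 10 of 21 rose and none fell in Luc hearts, where 25.3% rose and 8.79% fell (limma). With equal totals 9 rose and 2 fell in Luc hearts. In uninjected hearts the largest changes were in Timp1, an inhibitor of matrix metalloproteases, Spp1, which encodes osteopontin, and Tnc, tenascin C, with log2 fold changes of 7.11, 5.67 and 5.42, while Acta2 and Col1a1 had -0.66 and 0.00 and did not pass. From 4 h to 48 h 16 of 21 rose in AC hearts, where 26.6% of all genes did, and 9 rose and 3 fell in Luc hearts, where 15% and 21.5% did. At 48 h 15 of 21 were higher and none lower in AC than in Luc hearts, where 12.1% of all genes were higher, with a median of 1.45, including Spp1 (2.84), Fn1, fibronectin (2.15), and Cthrc1, a secreted protein of activated fibroblasts (2.06), while Acta2 and Lox had 0.58 and 0.43 and did not pass. In the test of the difference between the AC effects at 48 h and at 4 h, 10 of the 21 passed as higher and none as lower, where 2.88% of all genes were higher.

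The families of single members gave mixed counts, and the same limit holds for their lists. At 24 h in uninjected hearts the counts are to be read against 35.6% of all genes higher and 30.3% lower. In Luc hearts at 24 h these shares were 25.3% and 8.79%. Of the other small leucine-rich proteoglycans 4 of 5 tested fell at 24 h in uninjected hearts, with Ogn from 106 to 20.2 CPM and Prelp by 1.75 on the log2 scale, while Bgn had 0.32 and did not pass. In Luc hearts at 24 h 4 of 7 rose, with Fmod and Chad at 3.47 and 2.66, and 2 fell, Ogn among them at -1.33. Of the other fibulins and elastic fibre genes 3 of 9 fell and 2 rose in uninjected hearts and 4 rose in Luc hearts. Of the PDGF ligands and receptors other than Pdgfra, 2 of 6 rose and 2 fell in uninjected hearts, while Pdgfrb had a log2 fold change of 0.00, and 4 rose in Luc hearts, Pdgfrb among those by 0.97. Capg, an actin capping relative of gelsolin, rose by 2.84 in uninjected hearts at 24 h, and Flii by 0.23, 2 of 4 genes of the gelsolin family tested, while in Luc hearts 1 rose, Flii by 0.58. Of 12 genes of the TGF-beta pathway 8 rose and 2 fell in uninjected and 6 rose in Luc hearts. Between AC and Luc hearts at 48 h these 5 lists had 2 of 7, 3 of 9, 3 of 6, 1 of 4 and 2 of 12 genes higher and none lower, where 12.1% of all genes were higher. With equal totals the counts of higher genes in Luc hearts at 24 h were 2, 1, 2, 0 and 3 for the 5 lists in this order.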

How the data were processed

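Poly(A) RNA of mouse LV was sequenced as single 50-bp reads in the uninjected set. The authors used STAR for alignment to mm10 and Partek Flow's expectation-maximization method for counting on RefSeq genes, followed by TMM scaling, and the deposited values are CPM. The values of the second set are deposited CPM to which 1 had been added, and 1 was subtracted. The processing of that set is not given in the sources used here beyond the labels. Of the values under 1 CPM in the first set, 83.2% to 85.2% were whole multiples of a library's lowest value (tolerance 0.05), too few to recover reads for a count test.

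Each set was fitted in 1 model of all its groups with limma 3.58.1 in R 4.3.3 (lmFit, eBayes with trend) on log2(CPM + 1), for the 12487 and 12555 genes averaging 1 CPM or more. P-values are two-sided and adjusted by Benjamini-Hochberg over all genes of the set, and a gene was called under 0.05. The 10 genes were tested in 9 comparisons, and other genes in all 13 that were fitted. On this scale a fold change understates the change of low genes. Ratios are of group means of CPM. Summaries used Python 3.11 with pandas 2.3.3, numpy 2.4.6 and scipy 1.17.1. The limma script was tested on simulated data.

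The 10 genes and the gene lists were chosen with earlier results of these data known. From each list at most 3 called genes of largest change and 2 not called are named per comparison described, and the 3 genes most like Gsn and Lrrc15 in each set. Alternatives were a pseudocount of 0.1, a minimum of 10 CPM or none, only the compared groups, no trend, array weights, 2 rescalings, the replicate number as a block, and leaving out single libraries. Promoter windows are from RefSeq on GRCm38.p6. Proteins measured in the same hearts were not analysed here.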

Additional observations from a re-analysis of the deposited data

Results flagged for a closer look

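Of 50 checks of a highest or lowest library in groups of 4, 2 were past the limit of Dixon's test, which chance passes in about 1 of 20 groups. Pdgfra had 52.7 CPM in AC library 2 at 4 h, far from the 28.6 to 31.8 CPM of the other 3. Vtn had 11.5 CPM in Luc library 1 at 48 h, where the other 3 had 9.05 to 9.46 CPM. The difference between AC and Luc hearts in Igsf10 was larger at 48 h than at 4 h by 1.59 on the log2 scale, by the test of the difference itself.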

How the results depend on the processing

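With 2 to 4 libraries per group, several calls rested on 1 library. Leaving out single libraries, the number of the 10 genes called was 0 to 1 for uninjected 4 h against sham, 0 in all fits for Luc 4 h against sham and for AC against Luc at 4 h and at 24 h, 1 to 5 for Luc 48 h against sham, 6 to 9 for Luc 48 h against 4 h, 4 to 6 for AC 48 h against 4 h, 2 to 4 for AC against Luc at 48 h and 0 to 3 for the difference between the AC effects at 48 h and 4 h. At 4 h in uninjected hearts 4 genes were called with array weights and 3 with only the compared groups in the fit, and in Luc hearts 1 with only the compared groups. For Luc 48 h, 2 were called against sham with array weights and 5 against 4 h with equal totals. For AC against Luc at 48 h, 1 was called with a minimum of 10 CPM, which left out Igsf10 and Tcf21, and 5 with median-ratio rescaling. For the difference between the AC effects, 0 were called with a minimum of 10 CPM, 2 with equal totals, 4 with array weights and 2 with only the compared groups. With the replicate number as a block, 1 gene was called for AC against Luc at 48 h, where Lum and Tcf21 missed the threshold (limma adjusted p = 0.13 and 0.070), and 0 for the difference of the AC effects, and the other 6 comparisons fitted kept their counts within 1.5 times, with Pdgfra lost for Luc 48 h against sham (limma adjusted p = 0.066). The numbers do not pair the libraries by their correlations. No paired analysis was possible because only 1 letter is shared for uninjected 4 h against sham. Beyond the constructions named, the cause was not tested.

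Among the fits of single genes, 41 of the alternatives changed a sign, none past the threshold. With equal totals these log2 fold changes were -0.013 for Lum (Luc 4 h against sham), 0.052 for Tcf21 (Luc 48 h against sham), 0.24 for Dcn (Luc 48 h against 4 h), 0.076 for Lrrc15 and 0.13 for Dcn (AC 48 h against 4 h), and -0.045 for Lum and 0.070 for Dpt (AC against Luc at 4 h and 24 h), and the median of the 10 genes for AC 48 h against 4 h was 0.10. With median-ratio rescaling they were 0.056 for Dcn (Luc 48 h against 4 h), 0.016 for Dpt and -0.055 for Fbln1 (AC against Luc at 24 h and 48 h). With array weights they were -0.024 for Tcf21 (AC 48 h against 4 h), 0.19 for Tcf21, and 0.011 and 0.029 for Dpt (AC against Luc at 4 h and 24 h). With 1 library left out, the ranges were -0.038 to 0.15 for Tcf21 in uninjected 4 h, -0.051 to 0.20 for Lum and -0.027 to 0.48 for Pdgfra in Luc 4 h and -0.17 to 0.035 for Tcf21 in Luc 48 h, each against sham, and -0.12 to 0.051 for Dcn in Luc 48 h against 4 h. For AC against Luc at 4 h they were -0.063 to 0.049 for Dcn, -0.16 to 0.017 for Dpt, -0.023 to 0.070 for Lum, -0.098 to 0.077 for Tcf21 and -0.22 to 0.046 for Vtn. At 24 h they were -0.098 to 0.21 for Dcn, -0.28 to 0.21 for Dpt, -0.027 to 0.65 for Lrrc15, -0.71 to 0.073 for Lum and -0.51 to 0.051 for Tcf21. Of the other alternatives, 37 lost a call, 45 gained one and 2759 kept direction and side of the threshold.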
